A study of Mus musculus with 8 samples.

Results

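Macrophages of the mouse kidney were taken as every cell that the authors' deposited annotation places in the class Macro. There were 329 such cells among 77393, a share of 0.425%, and all 329 have coordinates in the deposited embedding. The cells came from single-cell RNA sequencing of whole kidney from C57BL/6 mice aged 7 weeks, in 6 samples titled Control and 2 samples titled UUO. In unilateral ureteric obstruction (UUO) one ureter is tied off, here the left, and the kidney was taken on day 7. The labels give no genetic change for either group, carry the ligation text on Control samples as well, and do not say what Control animals underwent or whether a sample is 1 animal or several. The class name could not be checked against C1qa, Adgre1 and Cd68, because the values analysed here are measures per cell and not per gene.

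Macrophages are phagocytes that clear dead cells and debris, sample antigen and release signals that act on epithelium, vessels and fibroblasts. The healthy kidney holds resident macrophages between its tubules, marked by the complement component C1qa, the surface receptor F4/80 encoded by Adgre1, and the lysosomal protein encoded by Cd68. After ureteric obstruction, blood monocytes are known to enter the kidney and to mature into macrophages there, so monocytes, dendritic cells and macrophages form a continuum that annotation has to divide.

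The Control libraries contributed 219 macrophages of 46070 cells and the UUO libraries 110 of 31323. Control samples 1 to 6 held 69, 47, 7, 14, 45 and 37 macrophages, and UUO samples 1 and 2 held 44 and 66. Library totals ranged from 2263 to 18393 cells and from 4375942 to 56755823 UMIs, which are unique transcript molecules. Controls 5 and 6 and both UUO samples exceeded 10000 cells, while the 4 smaller libraries were Control samples. Controls 3 and 4 were merged into 1 sample, because a chi-square test of their cell numbers over classes gave p = 0.0509, close to the limit of 0.05. This left 5 Control samples and 2 UUO samples, for which the smallest two-sided exact permutation p is 0.0476. As no label says that samples are separate animals, a p-value here reflects only sample-to-sample spread, part of which may be technical. No cell barcode was seen as a macrophage in more than 1 library. For 25 macrophages the same barcode also occurred in another library, and 0 cells that shared a barcode across libraries had equal UMIs and genes.

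The abundance of macrophages in the whole kidney suspension did not separate obstructed from Control kidneys. Macrophages made up 1.92% of the cells in Control 1, 0.731% in Control 2, 0.338% in Controls 3 and 4 together, 0.278% in Control 5 and 0.271% in Control 6. They made up 0.239% in UUO 1 and 0.510% in UUO 2. Control 1 stood above every other sample, and the UUO samples lay on either side of the 3 lowest Control values. The means were 0.707% ± 0.703 (SD, n = 5) in Control and 0.375% ± 0.192 (SD, n = 2) in UUO. On the log2 odds scale, log2 of macrophages over all other cells, the UUO minus Control difference was -0.57 (95% interval -2.23 to 1.1), with a limma adjusted p of 0.550 over 28 classes. That interval runs from a loss to a gain, so it does not show equal abundance. Limma called 50% of the classes in this comparison, and Macro was not among them. Among the libraries over 10000 cells alone the difference had the other sign, 0.35 (limma adjusted p 0.729), and with 1 sample left out it ranged from -1.11 to -0.02.

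As a share of immune cells, macrophages were scarcer in UUO 1 and UUO 2 than in any Control sample as counted, without passing the adjusted test. The share was 23.1% in Control 1, 16.7% in Control 2, 2.67% in Controls 3 and 4, 5.29% in Control 5 and 5.22% in Control 6. It was 1.37% in UUO 1 (exact 95% binomial interval 0.999 to 1.84) and 1.78% in UUO 2 (1.38 to 2.26). These intervals cover counting error only, and that of the merged Controls 3 and 4 (1.66 to 4.05) overlapped both. Macrophages were the most numerous of the 15 immune classes in Control 1 and ranked second in Control 2. Their rank was 11 in UUO 1 and 12 in UUO 2. The log2 odds difference was -2.46 (95% interval -4.38 to -0.54). Its unadjusted limma p was 0.0160 and its adjusted p 0.240, and the exact permutation p was 0.0952 (adjusted 0.357).

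The immune compartment itself differed in size, and so did the libraries. Immune cells numbered 299 of 3599 cells in Control 1, 281 of 6433 in Control 2 and 787 of 6213 in Controls 3 and 4. They numbered 851 of 16168 in Control 5 and 709 of 13657 in Control 6. In UUO 1 there were 3205 of 18393, and in UUO 2 there were 3712 of 12930. Limma called 0% of the 15 immune classes, with 2 at an unadjusted p under 0.05, and edgeR with sample totals called 0, with 1 at an unadjusted p under 0.05. The macrophage difference was past the threshold among the libraries over 10000 cells (-1.81, limma adjusted p 0.0456). It was also past it without Controls 3 and 4 (-2.88, limma adjusted p 0.0305). That setting was chosen after the data were seen and leaves out the Control share nearest UUO. Among all alternatives 3 passed and 18 stayed uncalled, such as that without Control 1 (-2.02, limma adjusted p 0.376). Of the 15 immune classes, Macro had the lowest fitted difference.

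**Figure D1:**
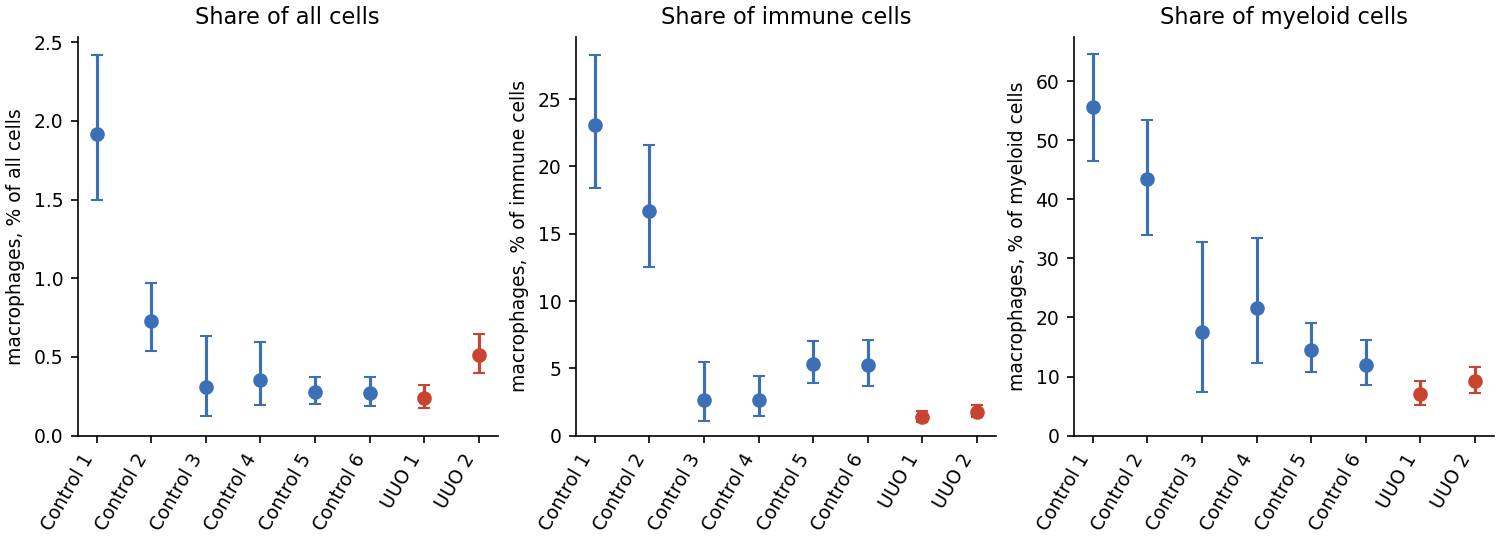
Macrophages as a percentage of all, immune and myeloid cells (vertical axes) in each library (horizontal axis), Control in blue and UUO in red; bars are exact 95% binomial intervals. Control 1 holds the highest share in each panel, and both UUO points lie lowest in the immune panel, at 1.37% and 1.78%, and in the myeloid panel, at 6.98% and 9.24%.

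Within the myeloid cells, which here are macrophages, monocytes, conventional (DC) and plasmacytoid (pDC) dendritic cells, neutrophils and basophils, the order of the groups was the same. Macrophages formed 55.6% of myeloid cells in Control 1, 43.5% in Control 2, 20% in Controls 3 and 4, 14.6% in Control 5 and 12.0% in Control 6. They formed 6.98% in UUO 1 and 9.24% in UUO 2. The groups did not overlap, although Controls 5 and 6 lay far closer to the UUO samples than to Control 1. The log2 odds difference was -2.02 (95% interval -3.76 to -0.28), with a limma p of 0.0243, an adjusted p of 0.138 over the 6 myeloid classes and an exact permutation p of 0.0952. Limma called 0% of the 6 classes, with 2 at an unadjusted p under 0.05, and edgeR with sample totals also called 0, with 2. Among the libraries over 10000 cells the difference was -0.81 (limma adjusted p 0.973). Without Controls 5 and 6 it was -2.83 (limma adjusted p 0.0130). That setting was chosen after the data were seen and leaves out the 2 Control samples nearest UUO, which enlarges the difference.

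Every myeloid share depends on the other members of the denominator. In the same fit, neutrophils, which are short-lived phagocytes recruited from blood, had a difference of 1.18 (limma adjusted p 0.352), and basophils, granulocytes named in the series title, had 1.77 (0.138). Monocytes had 0.18 (0.941), DC -0.06 (0.941) and pDC -0.65 (0.682). Neutrophils numbered 18 in Control 1, 28 in Control 2, 44 in Controls 3 and 4, 201 in Control 5, 147 in Control 6, 400 in UUO 1 and 366 in UUO 2. Their number per macrophage therefore differed widely among the Control samples as well.

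Macrophages were then set directly against monocytes, the blood cells from which many tissue macrophages arise. There were 6.27 macrophages per monocyte in Control 1, 3.92 in Control 2, 1.50 in Controls 3 and 4, 2.50 in Control 5 and 0.394 in Control 6. There were 0.454 in UUO 1 and 0.75 in UUO 2. Control 6, with 94 monocytes against 11 to 18 in the other Control samples as counted, fell below both UUO samples, and the groups overlapped. The log2 difference was -1.78 (exact permutation p 0.238), and without Control 6 it was -2.37. Against conventional and plasmacytoid dendritic cells together, which present antigen to T cells, there were 1.11 to 2.76 macrophages per cell in Control and 0.8 and 0.512 in UUO 1 and 2. Those ranges did not overlap with Controls 3 and 4 merged, while Control 3 alone held 0.778, below UUO 1. The log2 difference was -1.36, with an exact permutation p of 0.0952 and a Benjamini-Hochberg value of 0.222 over the 7 comparisons that were made on macrophages alone.

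The typical macrophage of the obstructed kidneys carried more transcripts than a Control macrophage, by the medians of samples. The median was 1281 UMIs in Control 1, 1466 in Control 2, 1551 in Controls 3 and 4, 1785 in Control 5 and 1205 in Control 6. It was 3024.5 in UUO 1 and 2764.5 in UUO 2. Both UUO medians lay above every Control median, with means of 2894.5 ± 184 (SD, n = 2) and 1458 ± 230 (SD, n = 5). UMIs per macrophage rose by 1.0 on the log2 scale (95% interval 0.48 to 1.52), or 2.0-fold, with a limma adjusted p of 0.0132 over the 19 classes with enough cells. Limma called 10.5% of those classes, Macro and Neutro. Neutro was the only other myeloid class among the 19, as monocytes, DC, pDC and basophils had too few cells. The exact permutation p was 0.0476, the smallest possible here, and its adjusted value 0.317. With 1 UUO sample left out the rise was no longer called, at 0.94 without UUO 1 and 1.07 without UUO 2, and among the libraries over 10000 cells it was 0.98 (adjusted p 0.159).

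**Figure D2:**
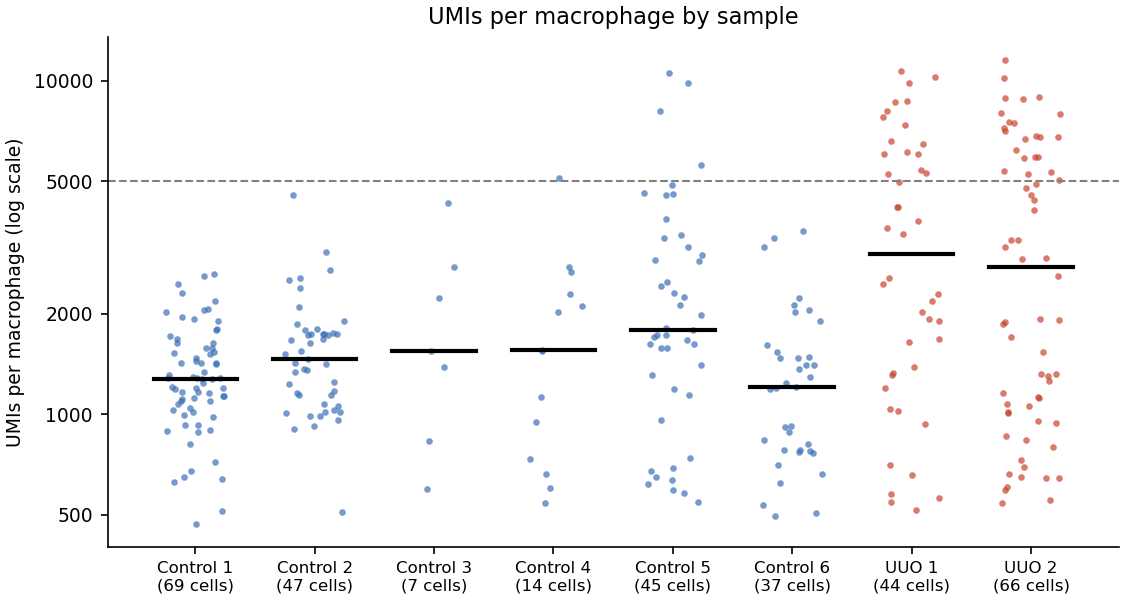
UMIs per macrophage (vertical log axis) in each library (horizontal axis), 1 point per cell, Control in blue and UUO in red; black bars are medians and the dashed line marks 5000 UMIs. UUO cells spread from 519 to 11542 UMIs, with 39 of 110 at or above the line against 5 of 219 Control cells.

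Genes detected per macrophage followed UMIs. The sample medians ranged from 574 to 879 genes in Control and were 1156 in UUO 1 and 1045.5 in UUO 2, so the groups did not overlap. The difference was 0.64 on the log2 scale (1.55-fold, limma adjusted p 0.0626), and limma called 5.26% of the 19 classes, which was Neutro alone. Without Control 5, whose macrophages had the most genes among the Control samples, the macrophage difference was called (0.72, adjusted p 0.0164). A cell with more UMIs shows more genes, so genes were also compared in a window of 1000 to 3000 UMIs, which narrows the range of UMIs without equalising them. There the median was 682.5 genes in Control 1, 754 in Control 2, 894.5 in Controls 3 and 4, 866.5 in Control 5, 650.5 in Control 6, 729 in UUO 1 and 690 in UUO 2. Within the window the UUO samples fell inside the Control range (difference -60.1 genes, exact permutation p 0.571). Median UMIs in the window still ran from 1321.5 in UUO 2, the lowest, to 2071.5 in Controls 3 and 4, which also had the most genes, with 12 to 54 Control and 15 and 20 UUO macrophages per sample in the window.

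The libraries differed in depth, so the macrophage values were also read against other cells of the same library. Over all cells, median UMIs were 2496 and 2583.5 in UUO 1 and 2 and 1292 to 1726 in the Control libraries other than Control 5, which had the highest of all, 2944. With the median of all cells of a sample subtracted, the macrophage difference was 0.43 (limma adjusted p 0.662). Against the other immune cells, macrophages held 0.972 times their median UMIs in Control 1, 0.922 in Control 2, 0.877 in Controls 3 and 4, 0.860 in Control 5 and 0.796 in Control 6. They held 1.39 times in UUO 1 and 1.21 times in UUO 2. Macrophages were thus below the other immune cells in every Control sample as counted and above them in both UUO samples. The log2 difference of this ratio was 0.55 (exact permutation p 0.0476, the smallest possible, and 0.167 adjusted over the 7 comparisons).

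That contrast depended on which immune cells served as the reference. Against lymphoid cells the log2 difference was 0.58 (exact permutation p 0.0476), against monocytes 0.33 (exact p 0.0952), against dendritic cells 0.09 (exact p 0.905) and against neutrophils -0.42 (exact p 0.238). Against all other myeloid cells it was -0.25 (exact p 0.476). Monocytes had median UMIs of 1407.5 to 2051 in Control and 2345 and 3019 in UUO, and dendritic cells 1904 to 4317.5 in Control and 4639 and 6074 in UUO. Neutrophils had 1451 to 2602.5 in Control and 5044.5 and 5574.5 in UUO. All 3 myeloid groups therefore had higher medians in both UUO samples than in any Control sample as counted. Some of these Control medians rest on fewer than 20 cells, the limit set for macrophages. Monocytes numbered 11 in Control 1, 12 in Control 2, 14 in Controls 3 and 4 and 18 in Control 5. Dendritic cells numbered 19 in Control 2 and 19 in Controls 3 and 4, and neutrophils 18 in Control 1. The 4 single references were added after the data were seen.

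**Figure D3:**
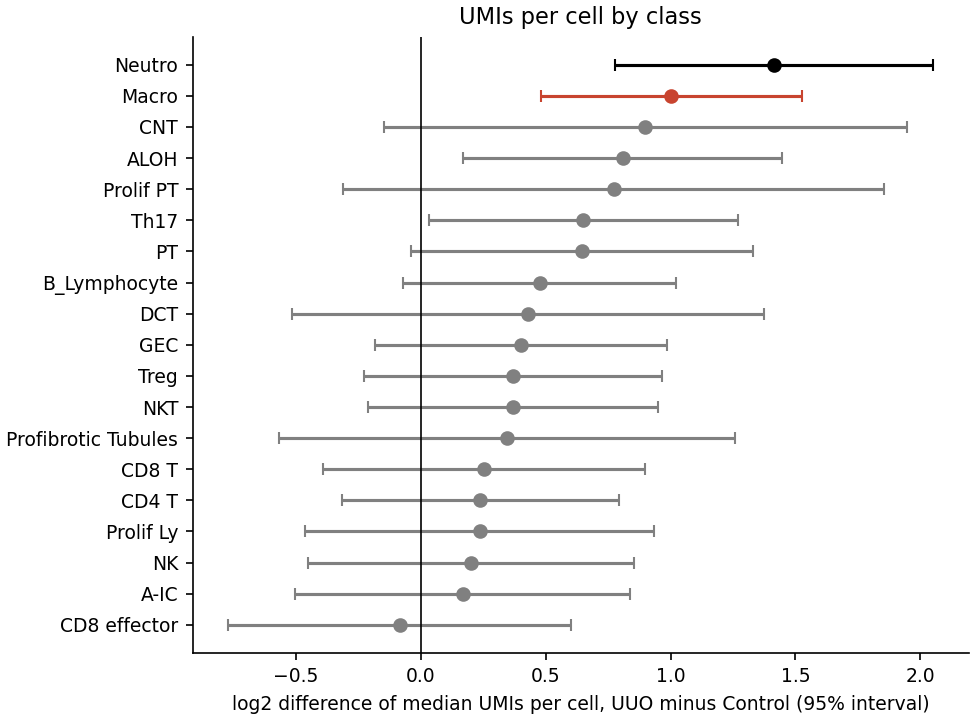
Fitted difference in median UMIs per cell between UUO and Control (horizontal axis, log2, with 95% intervals) for the 19 classes tested (vertical axis), macrophages in red, neutrophils, the other called class, in black, the rest in grey. Among these 19, Macro has the second highest difference, 1.0, after Neutro at 1.42. Monocytes, DC, pDC and basophils had too few cells to be tested.

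The median hides a change in shape, which is given here as a description chosen after the values were seen and without a test. Control macrophages had a narrow range of UMIs, with the upper quartile 1.52 to 2.76 times the lower quartile in the 5 Control samples. In UUO 1 this ratio was 4.57 and in UUO 2 it was 5.73. Lower quartiles were 1328 and 1030 UMIs in UUO 1 and 2 and 782 to 1188 in Control, while upper quartiles were 6066 and 5894 in UUO and 1538 to 3173 in Control. Macrophages under 1000 UMIs made up 20% of the UUO and 24.7% of the Control cells. The additional UMIs therefore sat in the upper part of the UUO distribution rather than in all cells.

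Macrophages of at least 5000 UMIs numbered 16 of 44 in UUO 1, or 36.4% (exact 95% binomial interval 22.4 to 52.2), and 23 of 66 in UUO 2, or 34.8% (23.5 to 47.6). In Control there were 4 of 45 in Control 5 (8.89%), 1 of 21 in Controls 3 and 4 (4.76%), and 0 in Controls 1, 2 and 6. With 69, 47 and 37 macrophages, those 3 counts of 0 allow shares of up to 4.35%, 6.38% and 8.11% by a limit of 3 counts, and the exact 95% binomial intervals reach 5.21%, 7.55% and 9.49%. The other myeloid classes also held more such cells in UUO, with 69.0% of DC against 21.3% in Control, 58.0% of neutrophils against 8.22%, and 11.4% of monocytes against 0.671%. Macrophages had the widest spread of UMIs of any immune class within the UUO samples, since no other class with at least 20 cells in a UUO sample exceeded a quartile ratio of 2.39. No doublet caller was run here, and the part of doublets in the cells of high UMIs was not tested.

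Mitochondrial transcripts were examined next, since a high mitochondrial share often accompanies cell stress or damage during tissue dissociation. The median share was 2.50% of UMIs in Control 1, 2.96% in Control 2, 2.75% in Controls 3 and 4, 5.93% in Control 5 and 7.67% in Control 6. It was 2.72% in UUO 1 and 4.20% in UUO 2, inside the Control range. The difference of medians was -0.90 percentage points (95% interval -5.51 to 3.71, limma adjusted p 0.887). Limma called 0% of the 19 classes for mitochondrial percentage, with 0 at an unadjusted p under 0.05, and the exact test also called 0, with 0. The 2 large Control libraries had the highest medians, and without Controls 5 and 6 the difference had the other sign, 0.73.

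The share of macrophages above a mitochondrial limit varied as much between Control samples. Macrophages with at least 10% mitochondrial UMIs were 5.80% of the class in Control 1, 12.8% in Control 2, 9.52% in Controls 3 and 4, 33.3% in Control 5 and 43.2% in Control 6. They were 27.3% in UUO 1 and 22.7% in UUO 2, between the 3 low and the 2 high Control samples (difference 4.07 percentage points, exact permutation p 0.762). Among the libraries over 10000 cells the difference was -13.3 points. Of the other immune cells, 7.39% were at or above 10% in Control 1, 7.26% in Control 2, 6.27% in Controls 3 and 4, 44.3% in Control 5, 25.6% in Control 6, 4.97% in UUO 1 and 11.1% in UUO 2. The macrophage share was the higher one in both UUO samples and in every Control sample except Controls 1 and 5, a contrast that was not tested.

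**Figure D4:**
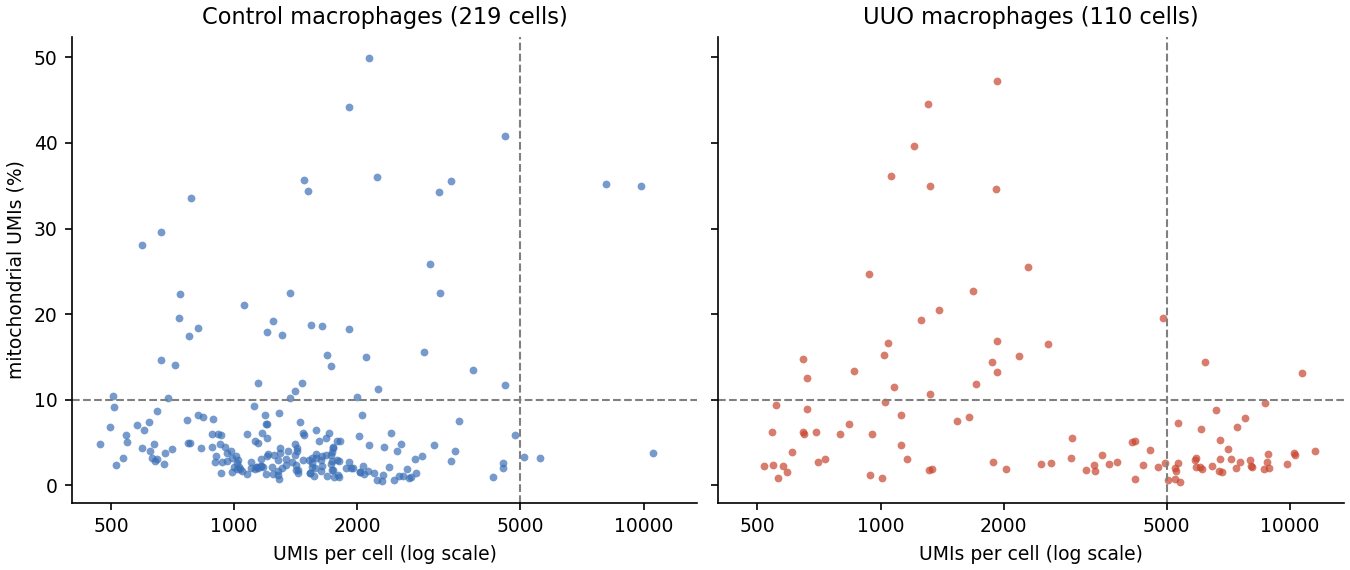
Mitochondrial percentage (vertical axis) against UMIs per cell (horizontal log axis) for each macrophage, Control in the left panel and UUO in the right; dashed lines mark 10% and 5000 UMIs. Of the 39 UUO cells at or above 5000 UMIs, 2 reach 10%, and most UUO cells above 10% lie at low UMIs.

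In UUO the cells of high mitochondrial share were those of few UMIs. UUO macrophages under 10% held a median of 4577 UMIs in UUO 1 and 4110 in UUO 2, and those at or above 10% held 1796 and 1319. In Control the same medians over all samples were 1397 and 1515. Cells at or above 10% had the higher median in Controls 1, 2, 5 and 6, over 4, 6, 15 and 16 such cells. They had the lower one, over 2 cells, in Controls 3 and 4. By medians, the direction in both UUO samples was thus the opposite of that in those 4 Control samples, which was not tested. Across cells the Spearman correlation of UMIs with mitochondrial percentage was -0.27 in the 110 UUO macrophages and -0.13 in the 219 Control macrophages. It was thus negative in both groups, each over cells that share libraries and depth. When cells at or above 10% were left out, the rise in UMIs per macrophage was 1.73 on the log2 scale (3.32-fold, limma adjusted p 2.71e-07) and that in genes 1.15 (2.21-fold, adjusted p 9.29e-06). In those fits Controls 3 and 4 dropped out of the macrophage class, with fewer than 20 cells. Limma gave all classes 1 common variance there, so these p-values do not measure the spread of macrophage samples alone. For the samples left, the smallest possible exact permutation p was 0.0667.

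Each cell's UMIs were also split into those of mitochondrial genes and the rest. The medians of both parts were higher in both UUO samples than in any Control sample as counted. Median UMIs outside the mitochondrial genes ranged from 1006 to 1699 in Control and were 2879 in UUO 1 and 2653.5 in UUO 2. These rose by 1.04 on the log2 scale (2.05-fold, limma adjusted p 0.0218), and limma called 10.5% of the 19 classes. Without Control 1 or without Control 2 the adjusted p was 0.0532 and 0.0538, and without UUO 1 or UUO 2 it was 0.178 and 0.210. Mitochondrial UMIs per macrophage had medians of 30 in Control 1, 41 in Control 2, 38 in Controls 3 and 4, 102 in Control 5 and 87 in Control 6. In UUO 1 and 2 the medians were 139 and 126, above every Control sample. The log2 difference was 1.30 (limma adjusted p 0.584), with 0% of the classes called and 0 at an unadjusted p under 0.05 by limma or by the exact test. Without Controls 5 and 6, the Control samples of highest value, that difference was called (1.85, limma adjusted p 0.00018). That setting was chosen after the data were seen. Limma drew its variance there largely from other classes, so the p-value does not measure the spread of macrophage samples alone.

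In the authors' embedding, a UMAP plot in which cells of similar expression lie near each other, macrophages formed a compact island. Of the 30 nearest cells of a macrophage, 97.6% were macrophages, 1.68% were neutrophils and the rest other classes. The coordinates cover 25200 of the 77393 cells and none of the proximal tubule class, PT. Nearness to the cells left out could therefore not appear. The closest other class by median position was DC, at a distance of 1.71, followed by neutrophils at 3.04, pDC at 3.48 and monocytes at 3.90. Coordinates have no unit and distances between islands are not to scale with expression, and the classes were made from the same data, so these values describe the class and test nothing about it.

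Macrophages of the UUO samples were more widely scattered over that island. The median distance of a macrophage from the median position of the class was 0.154 to 0.174 in the 5 Control samples, 0.360 in UUO 1 and 0.386 in UUO 2. The class median lies near the Control cells, which are the majority, so distances were also taken from the median position of each sample itself. These were 0.133 to 0.168 in Control, 0.348 in UUO 1 and 0.348 in UUO 2, a description added after the values were seen. The median positions of the groups were 0.152 apart (exact permutation p 0.0476, the smallest possible, and 0.167 adjusted over the 7 comparisons). Without cells at or above 10% mitochondrial UMIs they were 0.081 apart (exact p 0.133). Macrophages made up 96.7% to 99.9% of the nearest 30 cells in the Control samples, 98.3% in UUO 1 and 91.7% in UUO 2, a difference of -3.83 percentage points (exact permutation p 0.143). Without UUO 2 it was -0.54.

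Away from the centre the UUO cells lay in 2 areas, which were outlined after the plot was seen and are described without a test. The upper area, UMAP_2 above -11, held 13 of 44 macrophages of UUO 1 and 17 of 66 of UUO 2. Of those 17, 1 cell lay far outside the island, at UMAP_2 -2.20, with 36.1% mitochondrial UMIs and 0% macrophages among its nearest 30 cells. In Control it held 9 of 219, of which 6 came from the 45 macrophages of Control 5 (13.3%) and at most 1 from any other Control library. The lower left area, UMAP_1 below 0.3 and UMAP_2 below the class median rounded to 1 decimal (-11.4), held 6 macrophages of UUO 1 and 16 of UUO 2, against 4 of 219 in Control. The centre thus kept 94.1% of the Control macrophages and 52.7% of the UUO macrophages.

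**Figure D5:**
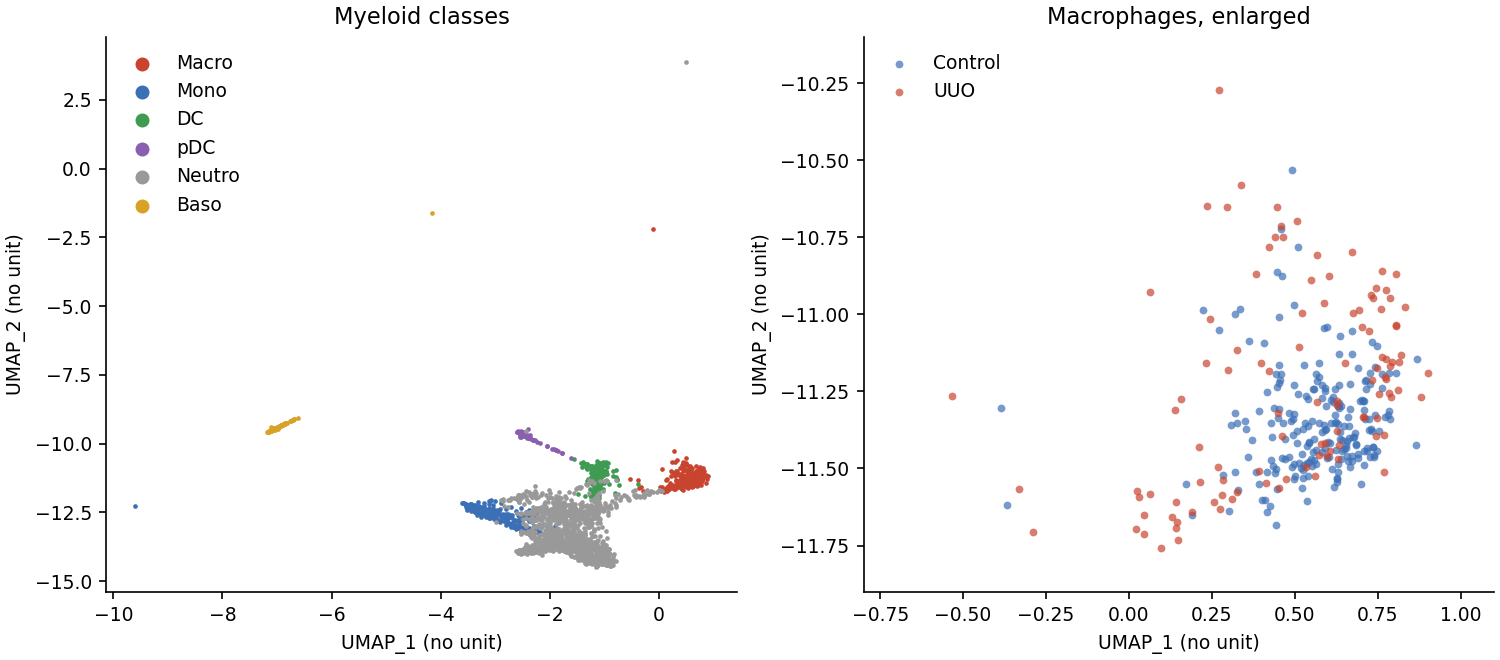
Deposited UMAP coordinates (both axes, no unit), 1 point per cell. Left, the 6 myeloid classes; right, macrophages alone, Control in blue and UUO in red, with 1 cell outside the enlarged range. Control cells gather in the centre, and UUO cells extend to the lower left and to the top.

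The UUO cells of the 2 areas differed in the measures per cell. In the upper area the 30 UUO macrophages had a median of 1142 UMIs and 8.86% mitochondrial UMIs. The mitochondrial median differed between the libraries, at 15.2% in UUO 1, with 7 of 13 cells at or above 10%, and 7.54% in UUO 2, with 6 of 17. The cell far outside the island is among those 6 and among all values given for the upper area. In the lower left area the 22 UUO macrophages had a median of 5267 UMIs and 2.65% mitochondrial UMIs, and 13 of them had at least 5000 UMIs. The 58 UUO cells of the centre had 3547 UMIs and 3.37%, against 1397 UMIs and 3.70% for the 206 Control cells there. In the centre UUO macrophages thus had the higher median UMIs, whereas in the upper area the 9 Control cells had a median of 3074 UMIs, above that of the UUO cells there. Neighbours of the lower left UUO cells were macrophages in 81.5% of cases, against 98.5% in the centre and 95.6% in the upper area. Neutrophils made up 1.36% of the neighbours of macrophages in UUO 1 and 5.51% in UUO 2. They made up 0.145% in Control 1, 0.142% in Control 2, 1.75% in Controls 3 and 4 and 2.07% in Control 6, and none were found in Control 5. UUO 1 thus lay inside the Control range, and UUO 2 alone lay above it.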

How the data were processed

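The deposited table has 1 row per cell. Its UMIs and genes per cell are raw counts, and its mitochondrial measure is a percent, both named as such per the file headers. The deposited UMAP positions of 25200 cells are treated as a unitless score. The submitters' processing notes list the tools Cell Ranger (6.0.1) and Seurat (4.0.1) and the build mm10. Their roles, the cell filters and the way classes were called are not stated there. Gene-level values were not analysed here.

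Macrophages were chosen by class name, and the class, the lists and the tests were chosen with earlier results of these data known. By rule, the text names the macrophage class throughout and the other myeloid classes beside it. Samples, not cells, were compared. Shares were fitted as log2((n + 0.5)/(N - n + 0.5)) with limma 3.58.1 in R 4.3.3 over 28, 15 or 6 classes. Log2 sample medians (mitochondrial UMIs with 1 added, percentages unlogged) were fitted over the 19 classes that reached 20 cells in 2 or more samples per group. Benjamini-Hochberg adjustment ran over classes, with a threshold of 0.05. In the main fits of shares of all cells, shares of myeloid cells and mitochondrial UMIs, limma gave all classes 1 common variance. Some alternative fits did so too. The 7 remaining values had two-sided exact permutation tests. The steps were tested on simulated data. Alternatives included edgeR 4.0.16 on cell numbers.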

Additional observations from a re-analysis of the deposited data

Results flagged for a closer look

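In 2 of 16 sets of Control values, 1 sample stood apart by Dixon's criterion, which chance meets in about 1 in 20 sets. Macrophages were 1.92% of all cells in Control 1, while the other Control samples as counted lay between 0.271% and 0.731%. The gap to the nearest was 0.721 of the whole range, against a critical value of 0.71 for 5 samples. Without Control 1 the log2 odds difference in the share of all cells was -0.09. The median UMAP_2 coordinate of the macrophages of Controls 3 and 4 was -11.35, and the other Control samples lay between -11.38 and -11.37. That gap was 0.784 of a range far smaller than the distance to UUO 1, at -11.18.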

How the results depend on the processing

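Each result was recomputed under alternatives, giving 272 values, of which 240 kept their direction and their side of the threshold, 13 newly passed it, 11 no longer passed it and 8 changed sign. Of those 240, 114 were exact tests. Among these, 91 had a smallest possible p over 0.05 and could not have passed. The rest could pass adjustment only if most or all of the 7 comparisons reached so small a p together. The UMAP distance cannot change sign, so the count says little of stability. Differences below are UUO minus Control, on the log2 scale unless a percentage is named. The rise in UMIs per macrophage was not called among the libraries over 10000 cells (0.98) or relative to all cells of the sample (0.43). It ran from 0.94 to 1.08 with 1 sample left out. The exact permutation test (1.0) did not call it either, but says nothing of stability. Its smallest p, 0.0476, passes adjustment over 19 classes only if all 19 reach it. For UMIs outside the mitochondrial genes the larger libraries (1.08) also lost the call, and the range with 1 sample left out was 0.93 to 1.12. The exact permutation test (1.04) had the same limit there. Genes per macrophage passed with 10 cells per sample (0.64), cells of at least 1000 UMIs (0.99), sample means (0.75), Controls 5 and 6 left out (0.64) and only cells under 10% mitochondrial UMIs (1.15), and ran from 0.56 to 0.72 with 1 sample left out. The share of immune cells passed among the larger libraries (-1.81) and without Controls 3 and 4 (-2.88), and the share of myeloid cells passed as a centred log-ratio (-1.65) and without Controls 5 and 6 (-2.83). Mitochondrial UMIs passed without Controls 5 and 6 (1.85). The sign changed for the share of all cells among the larger libraries (0.35), for UMIs relative to neutrophils (-0.42) and to other myeloid cells (-0.25), for the percentage of macrophages at or above 10% mitochondrial UMIs with cells of at least 1000 UMIs (-0.46) or the larger libraries (-13.3), and for the mitochondrial percentage with sample means (0.71) or without Controls 5 and 6 (0.73). The causes were not tested, and settings that leave out samples or cells also hold fewer of them. Replicate numbers 1 and 2 occur in both groups. With the replicate block, fitted on those 2 numbers alone, the immune difference (-3.95, limma adjusted p 2.83e-05) and the myeloid difference (-3.48, adjusted p 0.0144) both passed, and the mitochondrial percentage difference was 0.73. Limma gave all classes 1 common variance in these 2 fits of shares, so their p-values do not measure macrophage spread alone. The exact tests of that setting cannot go below 0.5. The numbers are not known to mark a shared animal or day, and the deviations of same-numbered samples over 28 classes correlated at -0.25 and -0.004. With 2 UUO samples, the differently numbered pairs must give the opposite values, 0.25 and 0.004, so these correlations cannot decide the pairing. Genes in the UMI window could not be computed at 2000 to 6000 UMIs or without cells at or above 10%, for lack of cells. The settings without 2 Control samples and the single reference classes were chosen after seeing the data. With 7 to 69 macrophages per library and 2 UUO samples, modest differences could not be resolved.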
